A study of Mus musculus with 32 samples.

Results

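Soleus muscle of mice in which Acvr1b had been removed from myofibres was compared with soleus of control mice. The members are the 8 soleus libraries that the labels call Acvr1b KO (4 mice) or control (4 mice), of 32 libraries from 16 mice in the whole series, and all genes measured in them. Mice were 6 weeks old when tamoxifen started the deletion, and the left soleus was taken 3 months after that. PolyA RNA of the whole muscle was sequenced, so that RNA of vessels, nerve, tendon and blood is measured with that of the fibres, and fewer cells of a type cannot be told apart from less RNA per cell. The labels give neither the Cre line, the exons removed, the sex, nor whether control mice received tamoxifen. The other groups drawn on below are the gastrocnemius medialis of the same 8 mice and the soleus of mice with knockout of Tgfbr1 alone or of Acvr1b and Tgfbr1 together (double KO), 4 mice each.

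Acvr1b encodes ALK4, a type I receptor kinase of the TGF-β family. Myostatin and activins bind a type II receptor, which activates ALK4 or its relative ALK5, the product of Tgfbr1, and the activated receptor phosphorylates SMAD2 and SMAD3, which enter the nucleus with SMAD4. In skeletal muscle this arm is known for restraining fibre growth. Soleus is a postural muscle that in the mouse holds mainly slow and oxidative fast fibres.

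The 8 libraries held 32413723 to 39789209 counts, of which 15.35% to 21.97% came from mitochondrially encoded genes. In a principal component analysis of the 16 soleus libraries, the first component (29.7% of the variance) set double KO 1 apart at 108.3 with all others between -10 and -3.4. The second (16.5%) placed Acvr1b KO 1 at 58 and the other 3 Acvr1b KO libraries between -11.1 and -4.9. Several list medians that moved without Acvr1b KO 1 are given both ways.

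Loss of Acvr1b mRNA was measured in each knockout muscle, and few other genes passed an adjusted p of 0.05. Levels are CPM, the count of a gene scaled to the TMM-adjusted depth of its library. Acvr1b (ENSMUSG00000000532, GRCm38 chromosome 15, 101174067 to 101213684, plus strand, protein coding) measured 15.5, 11.9, 13.2 and 13.6 CPM in the 4 Acvr1b KO muscles and 49.4, 45.1, 31.9 and 49.2 CPM in the 4 controls. The highest knockout value lay below the lowest control value. The means were 13.6 ± 1.48 and 43.9 ± 8.23 CPM (SD, n = 4 each), and the log2 change was -1.70 (SE 0.168, edgeR quasi-likelihood test with Benjamini-Hochberg adjusted p = 0.000517). Counts are summed over the whole gene, and other cells of the muscle carry the intact gene, so that the remaining level is no measure of the share of fibres that kept it. Tgfbr1, the sister receptor, measured 10.5, 13, 14.7 and 20.7 CPM in knockout and 18.5, 18.5, 14.9 and 16.4 CPM in control muscle, with overlapping groups (log2 change -0.21, SE 0.341, adjusted p = 1.0).

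Of 18143 genes tested, 4 passed an adjusted p of 0.05 (0.022%), 1 of them higher (0.00551%) and 3 lower (0.0165%) in knockout. At an unadjusted p under 0.05 there were 353 genes (1.95%), 220 higher (1.21%) and 133 lower (0.733%). The median log2 change of all genes tested was 0.022 and the median size of a change was 0.09. Log2 changes lay above 0 for 10261 of all genes tested and below 0 for 7882, to be set beside the list counts below. DESeq2 called 9 genes, the same 4 among them. In simulated counts with the same library sizes and gene-wise spread, the test recovered 77% of 100 genes over 1 CPM made to differ by 1 on the log2 scale. With 177 calls in that simulation the adjustment was looser than with the 4 calls here, and no library was simulated as an outlier. The 77% therefore does not give the power of this comparison.

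The 3 genes called besides Acvr1b all lie on chromosome 15 within 1 Mb of it. Slc4a8 (ENSMUSG00000023032, chromosome 15, 100761747 to 100823968), a sodium-driven bicarbonate transporter, lies 350 kb from Acvr1b. It fell: knockout muscles measured 4.05, 3.35, 4.10 and 3.38 CPM, and controls measured 8.49, 8.65, 9.25 and 10.9 CPM (log2 change -1.33, SE 0.165, adjusted p = 0.0054). The groups were far apart, the lowest control standing at over 2 times the highest knockout value. Gm49492 (ENSMUSG00000116180, 100600204 to 100602766), annotated as a long noncoding RNA from a bidirectional promoter, lies 571 kb away. It measured 0.842, 1.12, 0.928 and 1.15 CPM in knockout and 2.94, 2.73, 1.75 and 2.53 CPM in control, again without overlap (log2 change -1.30, SE 0.203, adjusted p = 0.043). This call was lost in 7 of the 8 fits that left out 1 of these libraries, with adjusted p of 0.0968 to 0.288 and log2 changes of -1.36 to -1.21. The 1 fit that kept it was the one without control 3. The call was also lost with only these 8 libraries in the fit (adjusted p = 0.149) and with all 32 libraries in it (adjusted p = 0.164). Counts of Gm49492 were fractional, with reads divided between several alignments, in 4 of the 8 libraries.

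Mettl7a3 (ENSMUSG00000058057, 100334929 to 100340375), a methyltransferase-like gene 834 kb from Acvr1b, was the 1 gene that rose. It measured 1.66, 1.78, 1.97 and 2.51 CPM in knockout and 0.611, 0.683, 0.416 and 0.535 CPM in control (log2 change 1.82, SE 0.234, adjusted p = 0.0055). All 4 knockout values were above all 4 control values. The gene has close copies beside it, Mettl7a1 and Mettl7a2, and the authors gave each of several alignments of 1 read a fraction of it. Of the 50-base stretches of the Mettl7a3 transcripts, 45.9% also occur in 1 of the other copies, and its counts were fractional in 8 of the 8 libraries. Mettl7a2, chosen after its values were seen, measured 4.45, 4.16, 3.98 and 4.96 CPM in knockout and 2.53, 2.15, 1.67 and 2.05 CPM in control (log2 change 1.06, adjusted p = 1.0). Summed over the 3 copies, knockout muscles held 28.3, 27.9, 27.3 and 33.3 CPM and controls 24.2, 20.9, 17.3 and 22.3 CPM (log2 change 0.462, SE 0.207, unadjusted p = 0.0405, adjusted p = 1). Mettl7a3 is a small part of that sum, which therefore does not test it, and how far the divided reads bear on its change was not tested.

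**Figure D1:**
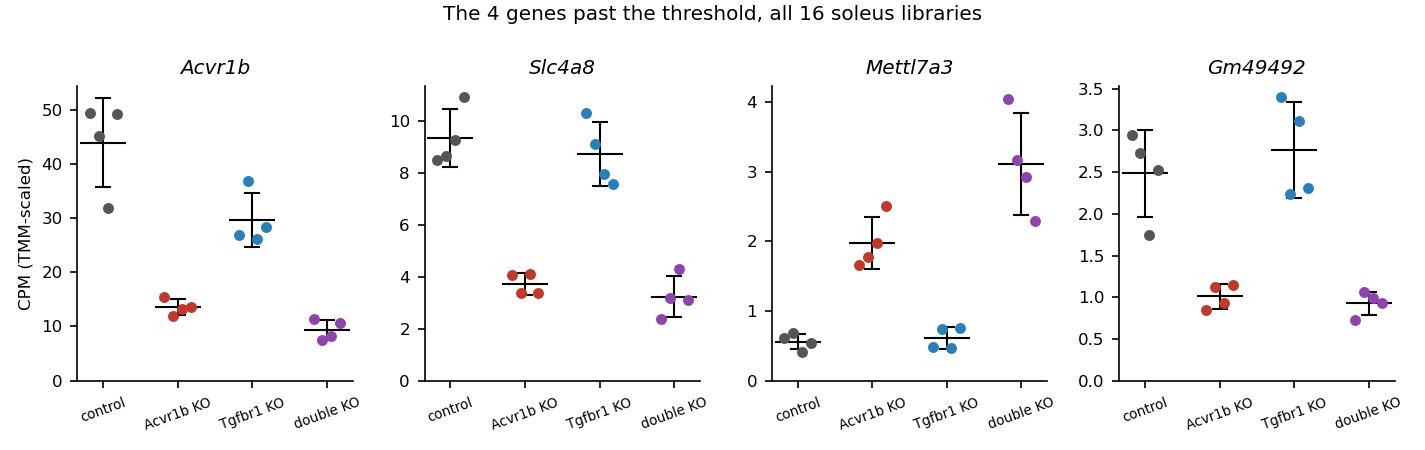
CPM (vertical axis, linear from 0) of the 4 called genes in each of the 16 soleus libraries by genotype; dots are libraries, the bar is the mean and the whiskers the SD. Acvr1b KO and double KO libraries lie apart from control and Tgfbr1 KO libraries for Slc4a8, Mettl7a3 and Gm49492.

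Promoters of the called neighbour Slc4a8 and of Mettl7a2, the copy beside Mettl7a3 that did not pass, are shown because SMAD complexes bind short DNA elements. RefSeq (GRCm38.p6) had an entry of 250 bases before to 50 bases after the start for Slc4a8 (chr15:100761497-100761796, plus strand) and Mettl7a2 (chr15:100352950-100353249, plus strand) and none for Mettl7a3 or Gm49492. The elements searched on both strands were the SMAD palindrome GTCTAGAC, present in 0.213% of all 32851 promoters, and the SMAD box CAGAC, present in 49.6% of them. Capitals mark a SMAD box, here on the minus strand. 
Slc4a8: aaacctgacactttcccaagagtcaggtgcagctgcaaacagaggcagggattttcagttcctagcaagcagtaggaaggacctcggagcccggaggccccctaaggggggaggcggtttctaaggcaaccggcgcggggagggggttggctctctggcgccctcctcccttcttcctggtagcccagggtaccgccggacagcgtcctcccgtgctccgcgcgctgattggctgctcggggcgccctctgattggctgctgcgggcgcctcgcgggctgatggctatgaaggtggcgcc
Mettl7a2: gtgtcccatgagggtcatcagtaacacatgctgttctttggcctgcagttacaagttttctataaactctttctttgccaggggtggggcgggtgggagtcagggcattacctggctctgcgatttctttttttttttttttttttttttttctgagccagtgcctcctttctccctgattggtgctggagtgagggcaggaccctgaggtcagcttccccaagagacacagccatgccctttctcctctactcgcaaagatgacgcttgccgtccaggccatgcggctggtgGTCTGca
The Slc4a8 window held neither element, and the Mettl7a2 window held 1 SMAD box and no palindrome. A match is a description of the letters in the window.

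A larger share of the genes near Acvr1b than of genes elsewhere had an unadjusted p under 0.05, counted without Acvr1b itself. Within 5 Mb this held for 14 of 139 genes tested (10.1%), between 5 and 20 Mb for 7 of 148 (4.73%), farther along chromosome 15 for 9 of 418 (2.15%) and on other chromosomes for 322 of 17437 (1.85%), where edgeR called none and DESeq2 called 3, Tiparp, Mob3c and Sox7. Within 5 Mb, 7 of these genes had higher and 7 lower means in knockout. In the libraries labelled Tgfbr1 KO against the same controls the share within 5 Mb was 3.6% and on other chromosomes 2.27%, beside 2.26% of all genes. In gastrocnemius of the same knockout and control mice the shares were 16.3% within 5 Mb and 4.28% on other chromosomes, beside 4.42% of all genes.

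Several of these neighbours did not pass the adjusted threshold with edgeR. Rpap3, a chaperone cofactor in the assembly of RNA polymerase II, measured 8.96, 10, 10.2 and 13.2 CPM in knockout and 16, 15.9, 14.2 and 15.6 CPM in control (log2 change -0.54, edgeR adjusted p = 0.689, DESeq2 adjusted p = 0.0334). Its counts were fractional in 7 of the 8 libraries. The long noncoding gene 1700120C14Rik measured 7.09, 5.92, 6.67 and 6.08 CPM against 12.9, 14.2, 12.9 and 12.8 CPM (log2 change -1.03, adjusted p = 1.0). Its counts were fractional in 8 of the 8 libraries. Without double KO 1 in the fit its adjusted p was 0.000104, although that library belongs to neither group, since all soleus libraries share the estimate of the spread. With only the Acvr1b KO and control libraries in the fit, the adjusted p of 1700120C14Rik was 0.00827. Tmem117, a membrane protein gene 6.08 Mb away, measured 19.6, 27.8, 28.4 and 24.8 CPM against 14.7, 17, 15.8 and 16.3 CPM (log2 change 0.65, adjusted p = 1.0). In Ddn, which encodes the cytoskeletal protein dendrin, the values were 2.25, 1.20, 8.50 and 1.27 CPM against 0.500, 0.195, 1.03 and 0.394 CPM (log2 change 2.61, SE 1.058, adjusted p = 1.0). Acvr1b KO 3 held the highest Ddn value by far. 1700120C14Rik and Ddn were named after their values were seen. Whether DNA around the targeted allele differs between the groups was not tested.

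**Figure D2:**
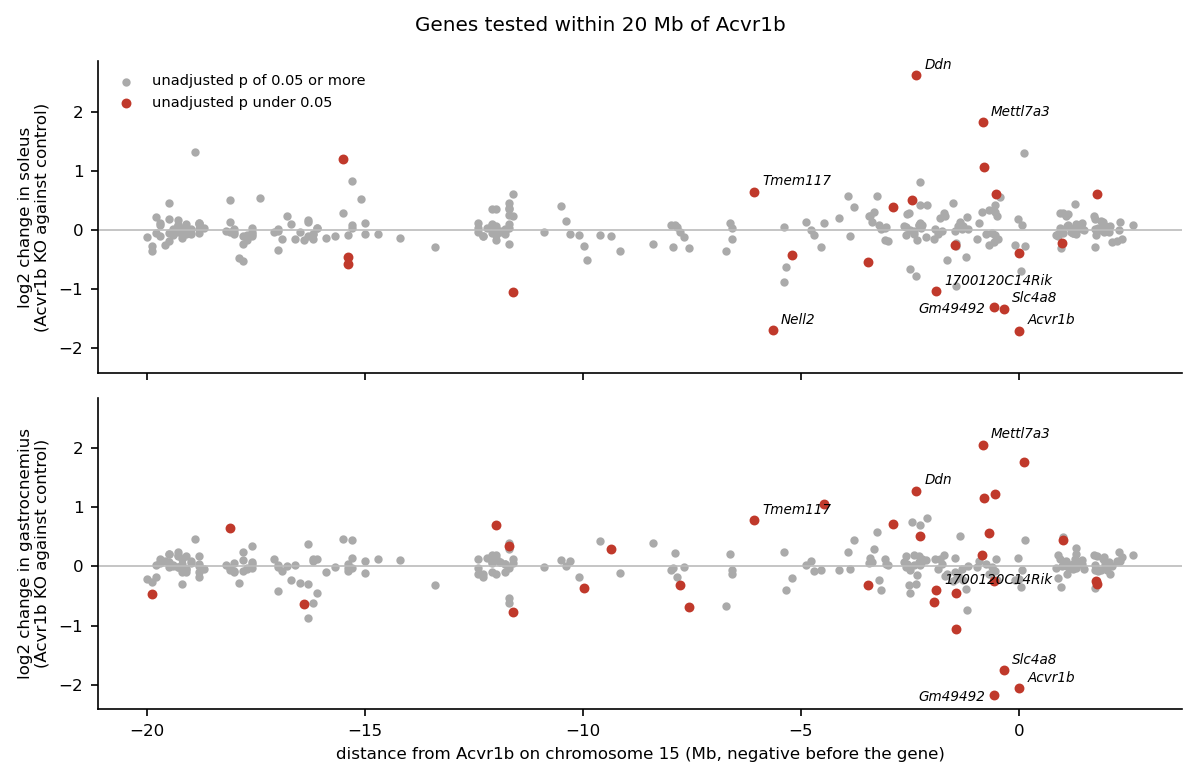
Log2 change (vertical axis, Acvr1b KO against control) of each gene tested within 20 Mb of Acvr1b against its distance from Acvr1b in Mb (horizontal axis), in soleus (top) and gastrocnemius (bottom); red points have an unadjusted p under 0.05. The red points gather near 0 Mb in both muscles, with Slc4a8 and Gm49492 low and Mettl7a3 high.

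Outside that stretch edgeR called no gene, DESeq2 called 4 (Mob3c, Tiparp, Sox7 and Trib1), and the leading genes are given as values. All 4 knockout libraries stood above all 4 controls for 206 genes (1.14%) and below them for 118 (0.65%). Mob3c, which encodes an adaptor of the Hippo kinase family, came nearest: knockout muscles measured 6.71, 5.04, 5.86 and 5.12 CPM and controls 3.77, 3.67, 3.33 and 3.46 CPM (log2 change 0.67, SE 0.12, edgeR adjusted p = 0.144, DESeq2 adjusted p = 0.00367). The next genes by unadjusted p did not pass. Ephb4, the ephrin receptor of veins, measured 27.3, 23.4, 22.4 and 18.9 CPM in knockout and 17, 13.9, 13.7 and 15.7 CPM in control (log2 change 0.61, SE 0.148). Jag1, a Notch ligand, measured 5.59, 6.41, 7.15 and 5.37 CPM against 4.14, 3.38, 4.33 and 4.39 CPM (log2 change 0.59, SE 0.145). Efna1, an ephrin ligand, measured 9.99, 6.80, 7.45 and 6.64 CPM against 3.89, 5.07, 3.11 and 5.09 CPM (log2 change 0.85, SE 0.218). The adjusted p of each of the 3 was 1.0, with unadjusted p of 0.000803, 0.000895 and 0.00132. The other genes that the rule took on this side were Kdsr, Map3k11, Zbtb12, Cdc42ep1, Caskin2 and Brd3, and, on chromosome 15, Zfp641 (2.88 Mb from Acvr1b) and Tmem117, with log2 changes between 0.18 and 0.65.

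Sox7, Sox18, Dll1 and Sox17 were chosen after their values were seen and support no theme. Sox7 measured 2.66, 2.86, 2.72 and 2.45 CPM in knockout and 1.08, 1.04, 1.25 and 1.69 CPM in control (log2 change 1.08, adjusted p = 0.599, and 0.0268 with DESeq2). Sox18, like Sox7 a transcription factor known from endothelial cells, measured 3.75, 3.18, 2.24 and 1.83 CPM against 1.36, 0.715, 0.777 and 1.18 CPM (log2 change 1.44, adjusted p = 1.0). Dll1, another Notch ligand, measured 2.77, 3.18, 3.05 and 2.23 CPM against 1.28, 1.53, 1.25 and 1.15 CPM (log2 change 1.11, adjusted p = 1.0, and 0.0324 without double KO 1 in the fit). Sox17 had another pattern: 52.3, 20.4, 22.9 and 21.9 CPM in knockout and 30, 32.1, 34.1 and 34.4 CPM in control. Acvr1b KO 1 held the highest Sox17 value of the 8 libraries and the other 3 knockout libraries the lowest. Of the 12 endothelial markers listed, none passed the threshold and 9 had log2 changes above 0, with a median of 0.17. Egfl7 among them measured 35.8, 24.8, 26 and 22.7 CPM against 19.1, 17.8, 20.2 and 18.8 CPM (log2 change 0.53, adjusted p = 1.0). The summed level of the 12 was 1170 CPM in Acvr1b KO 1, 676 to 743 CPM in the other 3 knockouts and 682 to 808 CPM in controls, and without Acvr1b KO 1 the median was -0.10. The part of endothelial RNA in these values was not tested.

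Of the genes that the rule took on the lower side, none but Acvr1b and Slc4a8 passed with edgeR, and Tiparp, Rpap3 and Trib1 had the next smallest unadjusted p. Tiparp, a mono-ADP-ribosyltransferase induced by dioxin-receptor signalling, measured 40.1, 30.4, 33.6 and 32.1 CPM in knockout and 60.9, 59.1, 60.1 and 67.4 CPM in control. The controls were tight and lay well above each knockout muscle (log2 change -0.86, SE 0.182, adjusted p = 0.599, 0.0176 with DESeq2 and 0.0247 when only these 8 libraries were fitted). Trib1, a pseudokinase that steers protein degradation, measured 19.1, 20.9, 23.9 and 18.7 CPM against 29.5, 32.8, 55.5 and 34 CPM (log2 change -0.88, SE 0.195, adjusted p = 0.733, and 0.0331 with DESeq2). It also lies on chromosome 15, more than 20 Mb from Acvr1b. Gadd45b, a growth arrest and DNA damage gene, measured 24.2, 18.4, 18 and 16.8 CPM against 37.6, 37.6, 51.3 and 38.7 CPM (log2 change -1.09, SE 0.335, adjusted p = 1.0). Errfi1, a feedback inhibitor of the EGF receptor chosen after its values were seen, measured 131, 72.5, 82 and 67.1 CPM against 173, 156, 159 and 187 CPM (log2 change -0.94, adjusted p = 1.0). Rgs2, Irf2bp2, Btg2, Apold1, Nfil3, Rpap3 and Ano6 completed the rule on this side, with log2 changes between -0.76 and -0.42.

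**Figure D3:**
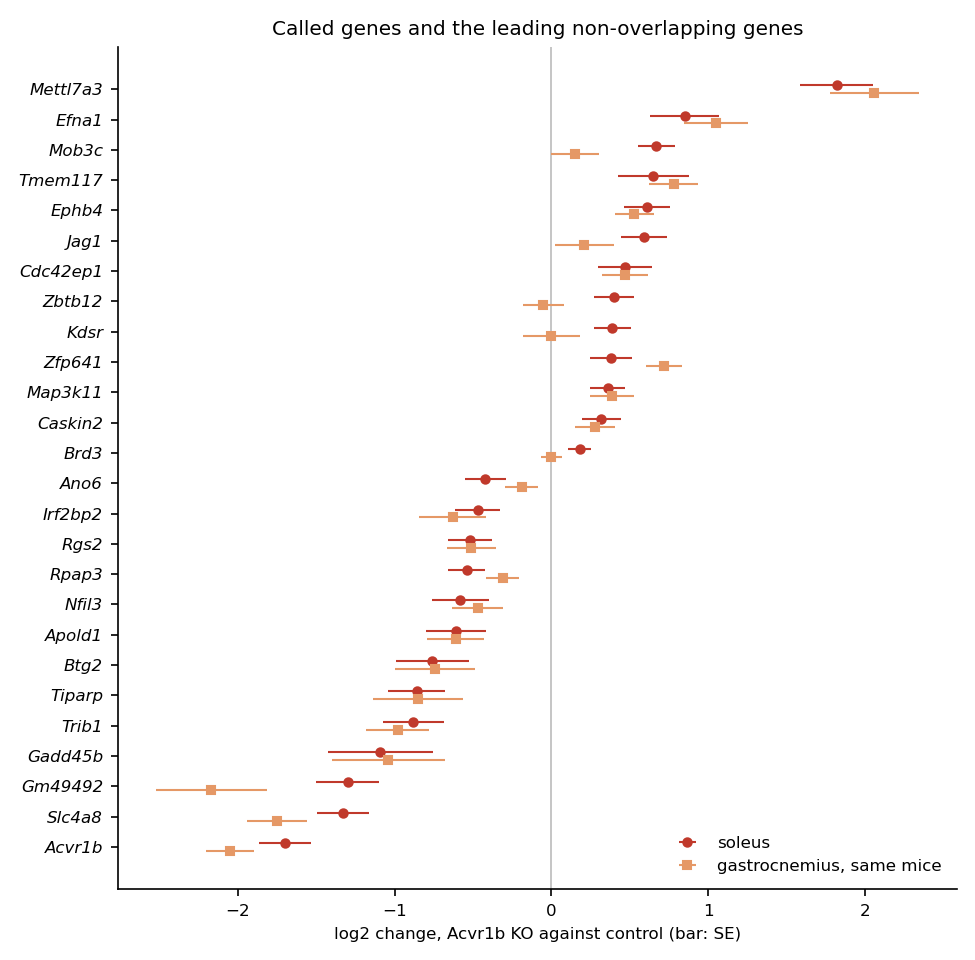
Log2 change with its SE (horizontal axis) of the 4 called genes and the leading genes whose libraries did not overlap in soleus (circles), with the change of the same gene in gastrocnemius of the same mice (squares). The genes were chosen on the soleus values, and most squares lie on the same side of 0 as the circles.

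Among the 20 genes listed as glucocorticoid and FoxO responsive, none passed the threshold, 19 had log2 changes below 0 and 5 had an unadjusted p under 0.05 with the lower mean in knockout, against 0.733% of all genes. The median was -0.25. By library the list score, the mean log2 CPM of the members relative to the control mean, was 0.08 in Acvr1b KO 1, -0.48, -0.32 and -0.64 in the other 3 knockouts and -0.16 to 0.17 in controls. Acvr1b KO 1 lay inside the control range and the other 3 lay below it. Lcn2, an acute-phase protein gene induced by glucocorticoids and inflammation, measured 19.2, 2.91, 4.52 and 1.92 CPM in knockout and 13, 18.8, 17 and 21.9 CPM in control (log2 change -1.30, SE 0.529, adjusted p = 1.0). Without Acvr1b KO 1 it passed (log2 change -2.50, adjusted p = 0.0191), as did Sox17 (log2 change -0.59, adjusted p = 0.0318). Cebpd, a transcription factor of the same response, measured 38.1, 24, 24.9 and 25.7 CPM against 36.5, 34.7, 38 and 36.6 CPM. Klf9 was the member above 0, with a log2 change of 0.09. The 29 immediate early genes held no call, 19 lay below 0 and the median was -0.17. Control 3 had the highest score of that list, 0.55, and without control 3 the median was 0.06. Over the other fits it ran from -0.34, without Acvr1b KO 3, to -0.08, without Acvr1b KO 4.

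In some genes the mouse behind Acvr1b KO 1 stood apart from its group in both muscles, while for Gadd45b, Tiparp and Trib1 its soleus lay below all controls like the rest of its group. In gastrocnemius its Tiparp value, 53.9 CPM, fell among the controls (45.7 to 87.1 CPM), and the other knockouts measured 25 to 26.4 CPM. Its Gadd45b value there was 13.4 CPM, beside a lowest control of 13.2 CPM. Its Trib1 value there, 14.2 CPM, lay below all controls (17.1 to 35.3 CPM). Ddit4, an inhibitor of mTORC1 induced by stress and glucocorticoids, measured 120, 46.1, 40.5 and 46.3 CPM in soleus knockouts and 98.4, 105, 110 and 99.2 CPM in controls. In gastrocnemius the same knockout mice measured 210, 77.6, 69.7 and 55 CPM and controls 148, 243, 189 and 208 CPM. Replicate 1 fell among the controls in gastrocnemius and above them in soleus, and the other 3 lay below them in both. The transcription factor gene Sox4, chosen after its values were seen, measured 69.4, 5.79, 8.74 and 4.62 CPM in soleus knockouts and 34.7, 85.2, 120 and 67.7 CPM in controls (log2 change -1.79, SE 1.074, adjusted p = 1.0). In gastrocnemius it measured 158, 10.9, 16.4 and 7.42 CPM in knockouts and 113, 138, 89.6 and 109 CPM in controls. Soleus libraries labelled Tgfbr1 KO measured 32.4, 6.00, 12.1 and 2.91 CPM Sox4, and those labelled double KO 83.5, 4.77, 4.54 and 4.00 CPM. Replicate 1 held the highest value in each of the 3 knockout genotypes, and no control was as low as replicates 2 to 4. Within each knockout genotype, replicate 1 and replicates 2 to 4 carry the same genotype label. The labels name no day, litter or batch. In the difference between replicates 2 to 4 and the controls, genotype and such a condition cannot be told apart.

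Leaving out double KO 1 and Acvr1b KO 1 together, a choice made after seeing the data, gave 23 called genes, 4 higher and 19 lower, in place of 4. The first 4 remained. Those added were Lcn2, Ddit4 (log2 change -1.23, adjusted p = 0.00595), Sox17, Cebpd (log2 change -0.56), Gadd45b (log2 change -1.23), Errfi1 (log2 change -1.20), Depp1, a FoxO target (log2 change -1.66), the RNA-decay factor gene Zfp36 (log2 change -0.84), the metallothionein gene Mt1 (log2 change -1.08), the mitochondrial pyrimidine carrier gene Slc25a33 (log2 change -0.96), 1700120C14Rik, Spsb1, Ercc1, Rnf169, Slc39a14 and Rhob on the lower side, and Dll1 (log2 change 1.11), Tmem117 (log2 change 0.75) and Mettl7a2 on the higher side. These names follow from the fit and were not chosen by the rule. For Lcn2, Ddit4, Sox17, Cebpd, Zfp36, Depp1, Errfi1 and Gadd45b, Acvr1b KO 1 held the highest of the 4 knockout values. Their calls follow in part from leaving that library out and are no separate support. Acvr1b KO 1 was also the highest knockout for 1700120C14Rik, which was called as well with double KO 1 alone left out.

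**Figure D4:**
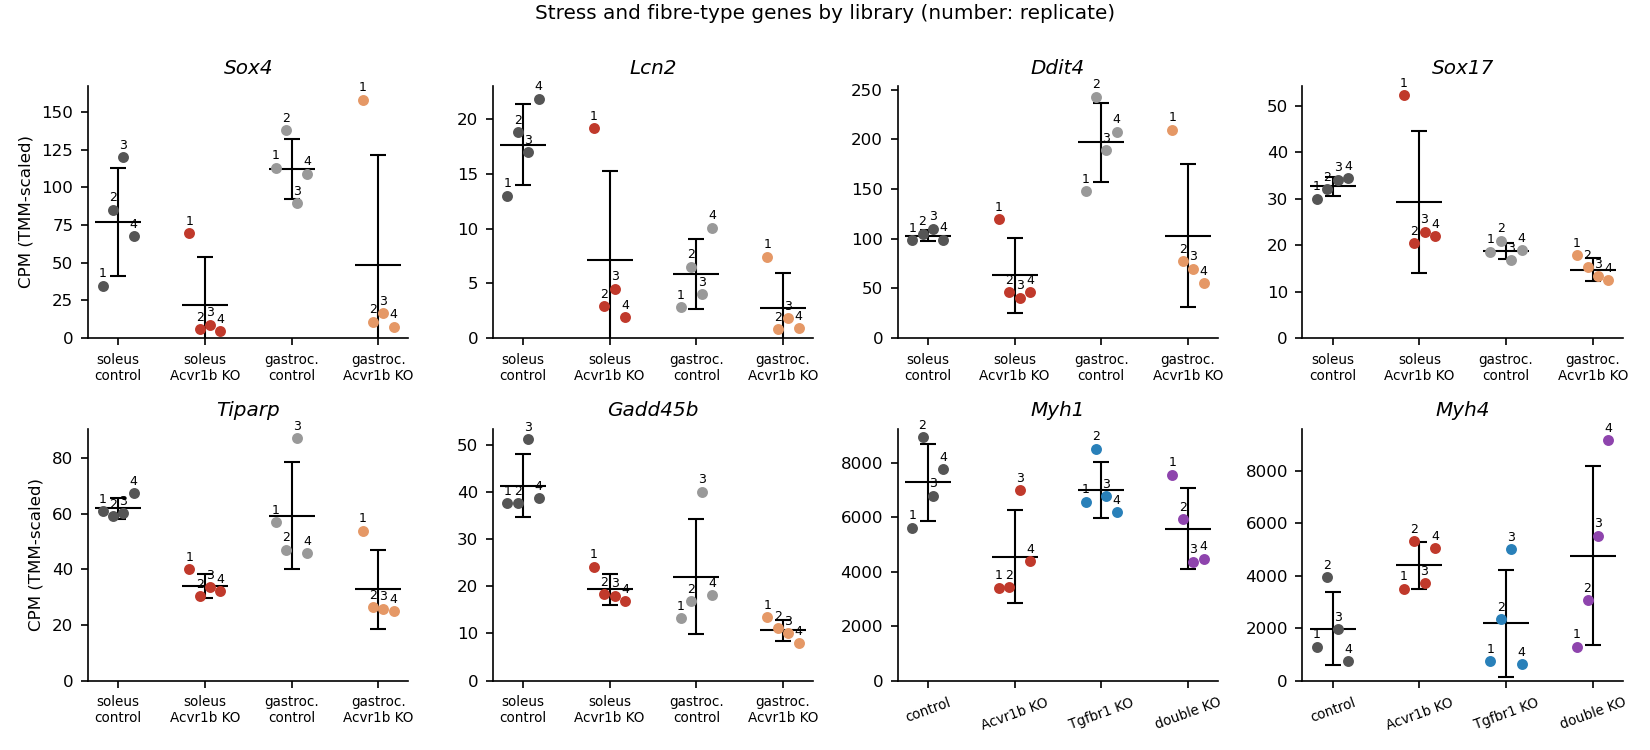
CPM (vertical axis, linear from 0) by library for 6 inducible genes in soleus and gastrocnemius of control and Acvr1b KO mice, and for Myh1 and Myh4 in soleus of the 4 genotypes; numbers are replicates, the bar is the mean and the whiskers the SD. In Sox4, Lcn2 and Ddit4, Acvr1b KO 1 lies among or above the controls in soleus and the other 3 knockouts below them.

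The genes of the targeted pathway held no call besides Acvr1b. Of 13 receptors of the family tested, 1 fell, Acvr1b, and the median log2 change was -0.01, or 0.15 without Acvr1b KO 1. Of 14 SMAD proteins and partners none passed, 5 lay above and 9 below 0, and the median was -0.04, or 0.06 without Acvr1b KO 1. Smad3, a carrier of the activin signal, measured 48.1, 65.2, 68.1 and 86 CPM in knockout and 74.9, 66.7, 46.2 and 72.8 CPM in control, and Smad2 measured 15.4, 15.1, 15.4 and 19.4 CPM against 16.9, 16.8, 13.7 and 16 CPM. Of 31 ligands and antagonists none passed, with a median of -0.06, or 0.08 without Acvr1b KO 1. Mstn, which encodes myostatin, measured 2.77, 3.32, 8.47 and 5.24 CPM against 3.11, 4.06, 5.75 and 1.55 CPM (log2 change 0.45, SE 0.563). Inhba, the activin A subunit, measured 1.00, 1.69, 2.27 and 2.39 CPM against 1.55, 1.40, 1.86 and 1.49 CPM (log2 change 0.22, SE 0.41). Inhbb, the activin B subunit, measured 21.6, 11.8, 13.6 and 8.97 CPM against 8.35, 11.4, 7.41 and 10.5 CPM, and Fst, which encodes follistatin, an antagonist of both, 2.96, 5.26, 5.09 and 4.22 CPM against 6.27, 4.39, 6.11 and 4.90 CPM. The groups overlapped for each of these ligand and antagonist genes.

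Of 19 activin and TGF-β target genes none passed, 9 lay above and 10 below 0, and the median was -0.01, or 0.21 without Acvr1b KO 1. With an unadjusted p under 0.05 there was 1 member higher and 0 lower in knockout, beside 1.21% and 0.733% of all genes. All knockouts lay above all controls for 1 member and below them for 0. Cdkn1a, the cell cycle inhibitor p21, measured 156, 76.1, 126 and 69.5 CPM against 103, 174, 197 and 148 CPM, with overlapping groups (log2 change -0.54). The score of the list was -0.76 in Acvr1b KO 1 and 0.07 to 0.28 in the other 3, beside a fibroblast and tendon marker score of -1.52 in that library and 0.18 to 0.38 in the others. The BMP target genes, the sister branch, had a median of 0.08 over 13 tested genes with no call, or 0.17 without Acvr1b KO 1. Among them Hey1 measured 9.39, 7.55, 8.20 and 6.27 CPM against 5.66, 6.05, 5.91 and 5.97 CPM (log2 change 0.41, adjusted p = 1.0).

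Myosin genes mark the fibre types. Myh7, the slow myosin, measured 8970, 9270, 8680 and 8740 CPM in knockout and 9750, 10100, 7270 and 9520 CPM in control (log2 change -0.04, SE 0.175). Myh2, the myosin of oxidative fast fibres, measured 10500, 14500, 13200 and 14300 CPM against 12500, 14500, 12000 and 15300 CPM (log2 change -0.05, SE 0.252). The groups overlapped for both, with Acvr1b KO 1 lowest for Myh2. Myh1, the myosin of IIX fibres, measured 3410, 3420, 6990 and 4390 CPM against 5610, 8940, 6780 and 7760 CPM (log2 change -0.68, SE 0.238, unadjusted p = 0.0121, adjusted p = 1.0). Myh4, the myosin of the fastest IIB fibres, measured 3510, 5310, 3730 and 5040 CPM against 1300, 3940, 1970 and 742 CPM (log2 change 1.15, SE 0.661, unadjusted p = 0.103, adjusted p = 1.0). For Myh1 the knockouts held the 3 lowest values of the 8, and for Myh4 control 2 reached into the knockout range. Actn3, the α-actinin of fast fibres, measured 443, 621, 486 and 432 CPM against 261, 428, 295 and 59.5 CPM (log2 change 0.93, adjusted p = 1.0). Reads of the myosin genes were fractional in 8 of the 8 libraries, so part of each count is shared with its relatives. Of 20 slow-fibre contractile genes none passed (15 below 0, median -0.05), and of 20 fast-fibre contractile genes none passed (15 above 0, median 0.10).

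Energy metabolism showed no call. Of 78 nuclear-encoded respiratory chain genes, 72 lay above 0, but their median was 0.06 beside 0.022 for all genes. The score was 0.38 in Acvr1b KO 1, -0.09 to -0.06 in the other 3 and -0.06 to 0.07 in controls, and without Acvr1b KO 1 the median was -0.08. The 46 cytosolic ribosomal protein genes went with them: 44 lay above 0, the median was 0.06, and it was -0.11 without Acvr1b KO 1, which scored 0.44. Ndufb2, a subunit of complex I, measured 86.4 CPM in Acvr1b KO 1 and 50 to 53.3 CPM in the others, and Rpl32 133 and 81.4 to 86.7 CPM. Both lists thus change sign with that library. Ppara, the nuclear receptor of fatty acid oxidation, lies 15.4 Mb from Acvr1b and measured 23.9, 31.9, 34 and 27.1 CPM against 34.9, 54.4, 34.3 and 51.6 CPM (log2 change -0.58, adjusted p = 1.0). Fatty acid genes (40 tested), glycolysis and glycogen enzymes (36) and the TCA cycle and pyruvate oxidation (32) had medians of -0.02, 0.02 and -0.02. Lipe, the hormone-sensitive lipase, measured 36.5, 43.5, 43.6 and 35.6 CPM against 33.4, 35.1, 34.7 and 33.3 CPM (log2 change 0.22, adjusted p = 1.0). Mitochondrially encoded mRNAs had a median of 0.05, and mt-Atp8 measured 94.4, 162, 185 and 662 CPM against 139 to 153 CPM, with Acvr1b KO 4 alone far above.

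Genes of growth, breakdown and nerve contact did not pass either. The 35 genes of IGF, Akt and mTOR signalling had a median of -0.05, the 20 atrophy-related ubiquitin ligases and proteolysis genes -0.02, and the 31 autophagy and lysosome genes -0.03. Cblb, a ubiquitin ligase that targets IRS1, measured 23.8, 25, 32.1 and 30.2 CPM in knockout and 33.8, 37.3, 30.6 and 34.7 CPM in control (log2 change -0.29, unadjusted p = 0.048, adjusted p = 1.0). Musk, the receptor kinase of the neuromuscular junction, measured 11.6, 11.5, 16.5 and 12.5 CPM against 18.1, 20.9, 22 and 23.1 CPM. The groups did not overlap, yet the spread over the 16 soleus libraries was wide (log2 change -0.69, SE 0.448, adjusted p = 1.0). Sdc4, a syndecan of satellite cells, measured 106, 101, 112 and 95.7 CPM against 116, 132, 171 and 137 CPM (log2 change -0.43, adjusted p = 1.0). The 26 denervation and junction genes had a median of -0.06 and the 27 myogenic and satellite-cell genes -0.02.

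**Figure D5:**
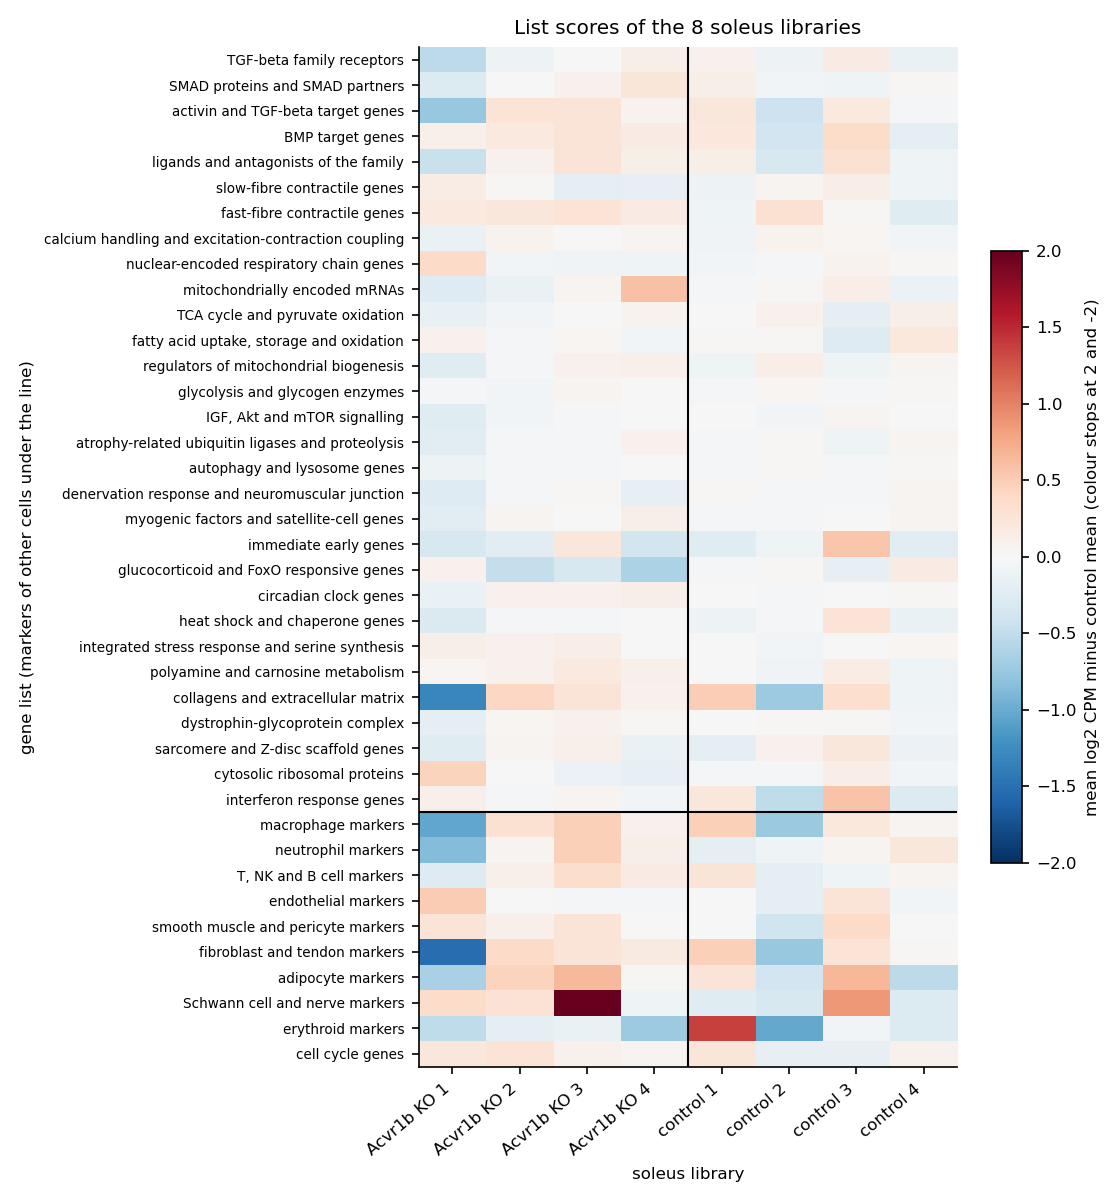
List scores (colour, mean log2 CPM of a list's tested members minus the control mean) of 40 gene lists (rows) in the 8 soleus libraries (columns). Acvr1b KO 1 is low in collagen, fibroblast and macrophage genes, Acvr1b KO 3 is high in Schwann cell genes, and Acvr1b KO 2, 3 and 4 are low in glucocorticoid and FoxO responsive genes.

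Markers of other cells set single libraries apart within both groups, and none passed the threshold. The summed level of 13 fibroblast and tendon markers was 195 CPM in Acvr1b KO 1, 664 to 865 CPM in the other knockouts and 355 to 1080 CPM in controls. Collagens and matrix genes (30 tested, no call, median -0.07, or 0.18 without Acvr1b KO 1) scored -1.30 in Acvr1b KO 1 and 0.08 to 0.42 in the others. Thbs4, a tendon matrix gene, measured 37.8, 235, 196 and 169 CPM in knockout and 338, 104, 191 and 216 CPM in control. The 14 Schwann cell and nerve markers summed to 819 CPM in Acvr1b KO 3, 134 to 183 CPM in the other knockouts, 264 CPM in control 3 and 110 to 118 CPM in the other controls. All 13 tested lay above 0 with a median of 1.01, which was 0.18 without Acvr1b KO 3. Erythroid markers summed to 1510 CPM in control 1 and 337 to 646 CPM in the other 7 libraries. Their median of -0.48 was 0.17 without control 1. Summed macrophage markers ran from 38.7 to 117 CPM in knockout and 51 to 110 CPM in control, and lymphocyte markers stayed under 1.40 CPM in each library. The medians of the macrophage, neutrophil, adipocyte, and fibroblast and tendon markers were 0.02, 0.1, 0.12 and 0.0. Without Acvr1b KO 1 these medians were 0.29, 0.34, 0.32 and 0.22. None of the markers was at 0 in all 8 libraries.

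Gastrocnemius medialis of the same mice, a mainly fast muscle, gave 5 calls among 17536 genes for the same contrast (0.0285%), all on chromosome 15. Acvr1b had a log2 change of -2.05 there, Slc4a8 -1.75, Gm49492 -2.17, Mettl7a3 2.06 and Zfp641, a zinc finger gene, 0.72. Zfp641 in soleus measured 14.1, 19.6, 18.9 and 16.4 CPM in knockout and 12.8, 13.6, 13.6 and 13.1 CPM in control (log2 change 0.38, adjusted p = 1.0). The difference between the muscles was tested itself: of 18726 genes none passed (edgeR, 0 calls, with 244 at an unadjusted p under 0.05, 1.3%; DESeq2, 0 calls). For Acvr1b the soleus change minus the gastrocnemius change was 0.35 (SE 0.22, unadjusted p = 0.123). Gm49492 had a difference of 0.87 (unadjusted p = 0.0459) and Mob3c measured a log2 change of 0.15 in gastrocnemius (unadjusted p of the difference 0.0131), both with an adjusted p of 1.0. Myh4 had a log2 change of -0.09 in gastrocnemius (unadjusted p of the difference 0.0893).

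The other soleus genotypes share the control libraries with this comparison, so their changes are given side by side only. The count of Tgfbr1 does not show the loss that the labels of the other genotypes name. Tgfbr1 measured 20.6, 14.3, 13.9 and 13.8 CPM in the soleus libraries labelled Tgfbr1 KO and 57.6, 15.7, 18.1 and 18.6 CPM in those labelled double KO, beside 18.5, 18.5, 14.9 and 16.4 CPM in control. The log2 changes against control were -0.12 (adjusted p = 1.0) and 0.69 (adjusted p = 0.435), with double KO 1 far above all others. Counts cover the whole gene and the removed part is not given in the labels, so that the knockout was not checked by this count. Against control, Slc4a8 had log2 changes of -1.33 in Acvr1b KO, -1.53 in double KO and -0.10 in the libraries labelled Tgfbr1 KO, and Mettl7a3 of 1.82, 2.47 and 0.13. Gm49492 had -1.30, -1.43 and 0.15. Acvr1b itself had -1.70, -2.22 and -0.57. Tiparp had -0.86, -1.27 and -0.95, and the glucocorticoid and FoxO list medians of -0.25, -0.66 and -0.34. Direct tests between the knockouts compare with no control library. Acvr1b KO against Tgfbr1 KO gave 12 calls (0.0661%), 9 higher (0.0496%) and 3 lower (0.0165%) in Acvr1b KO. Slc4a8 (log2 change -1.23, adjusted p = 0.00623), Gm49492 (-1.45, adjusted p = 0.00623) and Acvr1b (-1.13, adjusted p = 0.0111) were the 3 lower genes, and Mettl7a3 (1.68, adjusted p = 0.00623) was among the 9 higher ones. The other 8 lie together on chromosome 4, 4.8 to 5.5 Mb from Tgfbr1, and are low-level copies such as Gm17081, Gm5859 and Gm21093. Their summed level was 5.86, 3.96, 2.12 and 3.54 CPM in Acvr1b KO, 2.61 to 6.99 CPM in control, 0.0883 to 0.137 CPM in the libraries labelled Tgfbr1 KO and at most 0.186 CPM in those labelled double KO. The call of Acvr1b was lost without Acvr1b KO 2 (adjusted p = 0.0702), Acvr1b KO 4 (0.0501) or Tgfbr1 KO 2 (0.0514).

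Double KO against Acvr1b KO gave 23 calls (0.127%), 7 higher (0.0386%) and 16 lower (0.0882%) in the libraries labelled double KO. Of the 23, 15 lie on chromosome 4, which carries Tgfbr1, and 10 of the 16 lower ones are copies in the same stretch, summing to 2.45 to 6.87 CPM in Acvr1b KO and at most 0.217 CPM in double KO. Invs and Tdrd7, within 2 Mb of Tgfbr1, were higher (log2 changes 1.26 and 0.50). Sln, which encodes sarcolipin, a regulator of the calcium pump, measured 56.3 CPM on average (43.6 to 65.3) in double KO and 26.9 CPM in Acvr1b KO (log2 change 1.07, adjusted p = 0.0254). Ak4, a mitochondrial adenylate kinase gene, had a log2 change of 1.16 (adjusted p = 0.00487), the kinase gene Pak1 1.14 (adjusted p = 0.0254) and Trp53bp1, a DNA repair gene, 0.59 (adjusted p = 0.0254). Tinagl1, a matrix glycoprotein gene, fell from 47.9 to 17 CPM (log2 change -1.50, adjusted p = 0.0143) and Fkbp5, a glucocorticoid-induced chaperone gene, from 171 to 78.8 CPM (log2 change -1.12, adjusted p = 0.0372). The count fell to 0 when only these 8 libraries were fitted, and was 13 without double KO 1 and Acvr1b KO 1. Of Sln, Ak4, Pak1, Trp53bp1, Tinagl1 and Fkbp5, each but Ak4 also lost its call in at least 1 of the fits without 1 library, with adjusted p up to 0.11.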

How the data were processed

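PolyA RNA was sequenced from whole muscle. The authors deposited estimated counts per gene from featureCounts 2.0.1 on GRCm38 with Ensembl 102 models, counted on the reverse strand with multi-mapping reads divided as fractions, per the file headers. HISAT2 and cutadapt are named in the submitters' processing notes. Symbols came from GENCODE M21.

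Counts were rounded. All 16 soleus libraries entered 1 edgeR 4.0.16 fit (R 4.3.3; filterByExpr, TMM, robust quasi-likelihood test, 2-sided), with a mean per genotype, 12 residual degrees of freedom and Benjamini-Hochberg adjustment at 0.05. A fit of all 32 libraries, with no term for the mouse, tested the difference between muscles. A fit with the animal as block was an alternative. The mouse number in the labels pairs the muscles: same-mouse deviations correlated at 0.03 to 0.24 in Acvr1b KO and control mice and 0.06 to 0.58 in the other genotypes. The common biological coefficient of variation in soleus was 0.218. Scores use log2 CPM with a prior count of 2.

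Named were 8 fixed genes, all called genes, up to 12 per direction by unadjusted p among protein-coding genes of at least 5 CPM without overlap between groups, up to 4 members of each of 40 lists, and called genes of the other comparisons. The members and lists were chosen with earlier results of these data known. Sequences came from RefSeq. DESeq2 1.42.0, RLE scaling, no filter, other sets of libraries, a replicate block and leaving out each library were the alternatives. The labels say 4 mice per group. The fit was tested on simulated counts. Results for some genes are not reported here.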

Additional observations from a re-analysis of the deposited data

Results flagged for a closer look

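In groups of 4 libraries, a value whose gap to the next is most of the group's range was marked, as chance marks about 1 group in 20. Of 240 groups of values examined, 28 were marked. Acvr1b KO 1 accounted for 12 highest and 4 lowest values, and control 3 for 6 highest values. Some of the genes, such as Sox4, Sox17 and Ddn, had been named after their values were seen. The rate of 1 in 20 is therefore no measure for these counts.

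In Acvr1b KO 1 the highest of the 4 knockout values were Sox17 at 52.3 CPM, Ddit4 at 120 CPM, Lcn2 at 19.2 CPM, Cebpd at 38.1 CPM, Sox4 at 69.4 CPM, Zfp36 at 65.5 CPM, Depp1 at 44.7 CPM, Zbtb12 at 6.14 CPM, Ndufb2 at 86.4 CPM and Rpl32 at 133 CPM. Its list scores were also highest for respiratory chain genes (0.38) and endothelial markers (0.5). They were lowest for circadian clock genes (-0.14), heat shock and chaperone genes (-0.29) and fibroblast and tendon markers (-1.52), and Ano6 was lowest at 32.3 CPM.

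Among the other knockouts, Acvr1b KO 3 was highest in Ddn (8.50 CPM), and Acvr1b KO 4 in Smad2 (19.4 CPM) and mt-Atp8 (662 CPM). Control 3 was highest in Ano6 (58.7 CPM), Gadd45b (51.3 CPM), Smad6 (6.69 CPM), the matricellular gene Ccn1 (110 CPM), the ribosomal protein score (0.13) and the Schwann cell score (0.86). Control 2 was highest in 1700120C14Rik (14.2 CPM), control 1 in Brd3 (31.1 CPM), and control 4 was lowest in the dystrophin-glycoprotein score (-0.05). No gene passed the test of a difference in response between the muscles (edgeR, 0 calls, 244 at an unadjusted p under 0.05, and DESeq2, 0 calls).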

How the results depend on the processing

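Acvr1b was called under each alternative run, with log2 changes of -1.82 to -1.63 over the fits without 1 library. The count of calls against control moved from 4 to 9 with DESeq2, to 7 without double KO 1 in the fit and to 23 without double KO 1 and Acvr1b KO 1, the last 2 settings chosen after seeing the data, and to 0 without genes within 20 Mb of Acvr1b in the table; without 1 library it was 3 to 5. The replicate numbers do not pair knockouts with controls (correlations of -0.26 to 0.13, the own number best for 1 of 4 mice). With a replicate block the count was 3, Gm49492 being lost. For the difference between muscles it was 0 under each alternative, the animal as replicate block included.

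Double KO against Acvr1b KO gave 152 calls with DESeq2, 0 with only the compared groups, 15 with a replicate block, 13 without double KO 1 and Acvr1b KO 1 and 8 to 23 without 1 library (8 without double KO 3, 10 without Acvr1b KO 1, 11 without double KO 4, 14 without Acvr1b KO 2 or double KO 2), against 23. Acvr1b KO against Tgfbr1 KO gave 19 with DESeq2 and 7 to 15 without 1 library (7 without Acvr1b KO 2 or Tgfbr1 KO 2), against 12.

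Signs turned for genes whose changes were near 0. Without 1 library, Myh2 ranged from -0.11 to 0.04 (0.04 without Acvr1b KO 1, 0.01 without control 4), Myh7 from -0.13 to 0.01, Smad2 from -0.05 to 0.08 (-0.02 without control 3), Smad3 from -0.11 to 0.17 (-0.10 without control 3), Ndufb2 from -0.05 to 0.25 and Rpl32 from -0.07 to 0.19. Without double KO 1 and Acvr1b KO 1, Myh2 was 0.03, Ndufb2 -0.06 and Rpl32 -0.08. Causes were not tested. Genes near or under 1 CPM rest on few counts, which limits the precision of their changes.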
